A study of Homo sapiens with 8 samples.

Results

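ATP-binding cassette (ABC) transporters are membrane proteins that use the energy of ATP to move molecules across membranes. Most members of the human families ABCA, ABCB, ABCC, ABCD and ABCG carry their substrates out of the cytosol. Some export drugs and drug conjugates, some load cholesterol and phospholipids onto lipoproteins or into bile, and others act in mitochondria, peroxisomes or lysosomes. In the colon, ABCB1 and ABCG2 sit in the luminal membrane of the epithelium and limit the uptake of drugs and food toxins. In cancer research ABCB1, ABCC1 and ABCG2 are best known for efflux of chemotherapy drugs, and ABCG2 also for the dye exclusion used to isolate the side population of stem-like cells.

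A gene was taken as a member when a probe set was annotated to a single symbol that begins with ABCA, ABCB, ABCC, ABCD or ABCG and ends in a number, with pseudogenes left out. This gave 83 probe sets for 37 genes, out of 19775 genes measured. Where a gene had several probe sets, the brightest on average over the 8 arrays stood for it. By role the members comprised 10 drug and conjugate exporters, 12 sterol and lipid transporters, 4 genes of the ABCA6-like subgroup, 3 mitochondrial transporters, 4 peroxisomal or lysosomal transporters and 4 channel regulators, bile salt or other transporters. The symbols ABCA11P, ABCA17P, ABCC13 and ABCC6P1 were left out as pseudogenes.

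RNA abundance was measured on 8 Affymetrix expression arrays, 2 per group, in 2 human colon cancer cell lines. HT29 cells were grown as parental controls in DMEM with 10% fetal bovine serum, or as first spheres in DMEM-F12 with N2 Plus supplement and the growth factors EGF and bFGF (10 ng/ml each), with no serum listed. The sphere comparison therefore differs in medium as well as in growth form. SW480 cells, grown in high-glucose DMEM with 10% fetal bovine serum, were stable lines made with a vector control or labelled as expressing Snail, and the labels do not give the promoter or whether a line was a clone or a pool. The series' design text names the regulators of malignancy in sphere cells, and therapy resistance after their overexpression, as its questions. Snail, encoded by SNAI1, is a transcription factor that represses epithelial genes. Separate cultures for the 2 arrays of a group are not stated, so p-values here cover only the spread between arrays, possibly technical.

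The values are log2 intensities after RMA, and a difference of 1 is a 2-fold change. Partner arrays correlated at 0.991 over all genes for HT29 parental and at 0.995 in each of the other 3 groups. The 2 parental arrays stood further apart than the others, where 200 genes were 2-fold or more apart and the other pairs of arrays had 10, 13 and 19 such genes. SNAI1 read 6.36 and 6.34 on the vector arrays and 6.32 and 6.38 on the Snail arrays, a difference of 0.00 ± 0.15 (SE, adjusted p = 0.99). SNAI1 did not differ measurably with the label, and these libraries are called the arrays labelled Snail. Whether the probe set covers the transcript of the construct was not tested. In HT29, SNAI1 read 5.87 and 6.15 on parental arrays and 6.93 and 7.21 on sphere arrays (higher by 1.07 ± 0.15, adjusted p = 0.00032). Of 12 colon epithelial markers, those above every array's median on both arrays of a group numbered 11 for HT29 parental, 12 for spheres and 9 for each SW480 group. Against the vector arrays, 3 of the 12 were higher and 1 lower on the arrays labelled Snail (8.91% and 7.34% of all genes). CDH1 read 8.43 and 8.60 on the vector arrays and 9.30 and 9.24 on the arrays labelled Snail. VIL1 read 6.99 and 7.02 against 5.76 and 6.13. The 15 markers of other cell types averaged 5.51 to 5.54 for HT29 parental, 5.81 to 6.01 for spheres, 5.38 to 5.41 for SW480 vector and 5.47 to 5.48 for the arrays labelled Snail. In the same order of groups, 7, 9, 5 and 7 of them lay above every array's median on both arrays. Of these markers 3, LUM, CD3E and PECAM1, were higher in spheres. LUM read 4.65 on both parental arrays and 8.45 and 8.41 on the sphere arrays. The hybridisation controls BioB, BioD and Cre differed by 0.35, 0.14 and 0.13 between sphere and parental arrays, and BioC by 1.64. BioC averaged 8.59 on the parental arrays, 10.24 on the sphere arrays, 10.20 on the vector arrays and 9.74 on the arrays labelled Snail. The part of these differences in the results below was not tested.

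Promoters are shown for the 4 members with the largest change past the threshold in each direction, in spheres (ABCC2 higher, ABCG2 lower) and in the arrays labelled Snail (ABCB1 higher, ABCA2 lower). Each window runs from 250 bases before to 50 bases after a transcription start, 5′ to 3′ on the gene's strand, from RefSeq on GRCh38.p14. Windows were found for 29 of the 37 members. Capitals mark the searched motifs. The ABCC2 window lies at chr10:99782390-99782689 on the plus strand with 45% G and C. The ABCG2 window lies at chr4:88158810-88159109 on the minus strand with 72.3% G and C, around 1 of 5 listed starts. The ABCB1 window lies at chr7:87600835-87601134 on the minus strand with 55.3% G and C. The ABCA2 window lies at chr9:137028188-137028487 on the minus strand with 86.7% G and C. ABCB1 and ABCA2 have 2 listed starts each.
ABCC2: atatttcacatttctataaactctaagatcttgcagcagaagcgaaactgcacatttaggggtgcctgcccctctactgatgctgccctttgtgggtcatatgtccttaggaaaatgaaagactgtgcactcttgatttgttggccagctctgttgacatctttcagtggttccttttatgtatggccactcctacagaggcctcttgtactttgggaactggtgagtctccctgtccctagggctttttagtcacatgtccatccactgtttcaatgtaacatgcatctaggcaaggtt
ABCG2: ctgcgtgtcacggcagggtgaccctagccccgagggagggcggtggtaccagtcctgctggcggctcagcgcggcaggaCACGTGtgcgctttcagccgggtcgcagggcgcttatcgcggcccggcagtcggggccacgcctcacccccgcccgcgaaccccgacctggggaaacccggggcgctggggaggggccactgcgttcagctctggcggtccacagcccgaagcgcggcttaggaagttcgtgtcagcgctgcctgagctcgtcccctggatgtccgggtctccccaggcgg
ABCB1: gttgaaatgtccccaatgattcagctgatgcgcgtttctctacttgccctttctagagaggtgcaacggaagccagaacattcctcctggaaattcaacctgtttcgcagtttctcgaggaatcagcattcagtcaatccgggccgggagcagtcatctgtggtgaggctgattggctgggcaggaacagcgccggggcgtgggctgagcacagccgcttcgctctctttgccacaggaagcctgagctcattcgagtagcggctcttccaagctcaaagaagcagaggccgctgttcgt
ABCA2: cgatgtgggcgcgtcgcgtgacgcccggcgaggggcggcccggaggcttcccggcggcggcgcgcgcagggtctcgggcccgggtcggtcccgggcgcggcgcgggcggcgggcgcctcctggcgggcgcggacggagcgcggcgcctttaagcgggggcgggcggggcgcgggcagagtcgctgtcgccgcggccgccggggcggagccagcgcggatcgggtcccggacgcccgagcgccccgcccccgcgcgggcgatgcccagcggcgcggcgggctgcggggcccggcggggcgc

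Both strands of every window were searched for 5 motifs, and the shares among members were set beside those among all 15384 genes with a window. The Snail E-box CACCTG was present in 7 of 29 member windows (24.1%) and in 19.7% of all windows. The members that held it were ABCA1, ABCA3, ABCA5, ABCB8, ABCB9, ABCC11 and ABCG8. Among the 4 members that passed the test in the arrays labelled Snail, ABCB8 held it, and the printed windows of ABCB1 and ABCA2 held no match to any of the motifs. The hypoxia response core ACGTG was present in 9 member windows (31%) against 23.6% of all. In the ABCG2 window it matched on both strands within CACGTG, printed in capitals, which begins at position -171 from the start. The antioxidant response core TGACNNNGC was present in 6 member windows (20.7%) against 14.6%, among them ABCB6 and ABCC4. The nuclear receptor motif AGGTCA was present in ABCD4 (3.45%) against 11.6%, and the sterol response element TCACNCCAC in none of the 29 against 1.12%. The ABCC2 window held no match. A match is a description of the letters in the window and not of binding.

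In HT29 spheres the drug exporters moved in both directions. ABCC2 (MRP2), which exports glutathione and glucuronide conjugates across the apical membrane, was 6.58-fold higher, while ABCG2 (BCRP) was 10.5-fold lower, ABCC4 (MRP4) 3.36-fold lower and ABCC3 (MRP3) 2.20-fold lower. Among lipid transporters, ABCG1 and ABCA1 rose and ABCB4 and ABCA7 fell. Over all 37 members, 4 were higher (10.8%) against a background of 12.4% of all genes, and 7 were lower (18.9%) against 19%. The share of members called was thus near the background in both directions. The median difference was -0.05 for the members and 0.04 for all genes. Among all genes called in spheres 39.5% were higher, against 49.3% after quantile normalization and 56.4% after centring each array on its median, which moved the median of all genes by 0.12. The members counted 4 higher and 7 lower after quantile normalization and 5 higher and 7 lower after centring.

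**Figure D1:**
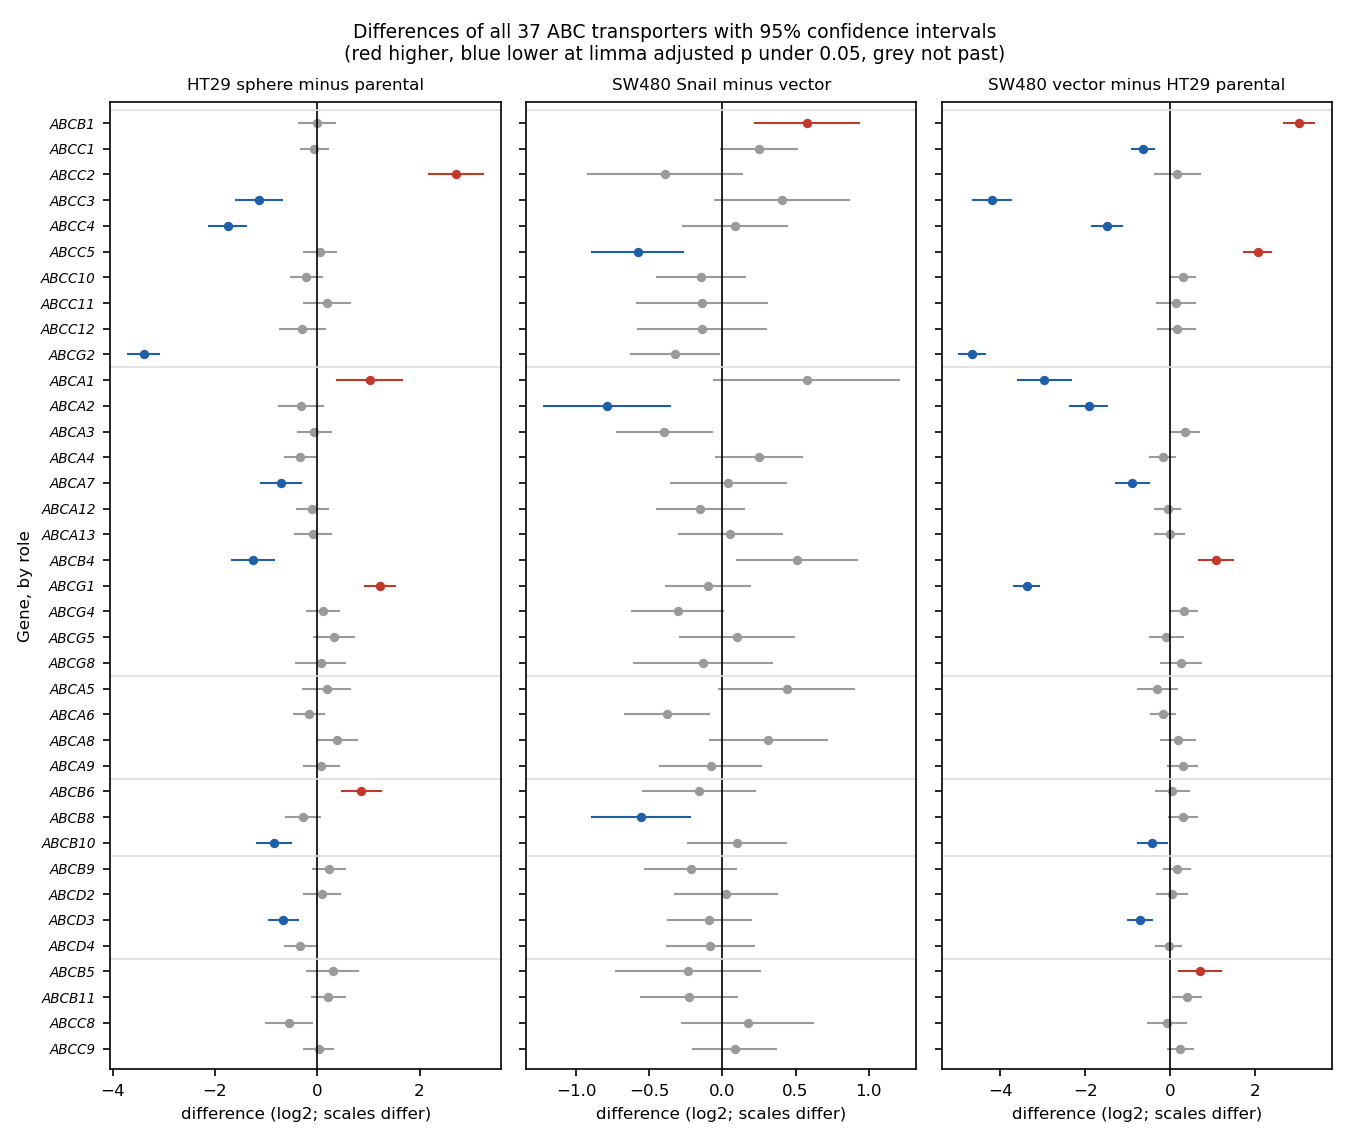
Log2 difference of each of the 37 ABC genes (points) with its 95% confidence interval (bars), ordered by role, in 3 panels with different axis ranges for spheres minus parental cells, arrays labelled Snail minus vector, and SW480 vector minus HT29 parental; red genes were higher and blue genes lower at limma's adjusted p under 0.05, and grey genes did not pass. The points run from -3.39 (ABCG2) to 2.72 (ABCC2) in spheres, from -0.79 (ABCA2) to 0.58 (ABCB1) in the arrays labelled Snail, and from -4.66 (ABCG2) to 3.03 (ABCB1) between the lines.

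ABCG2, an apical exporter of many drugs, porphyrins and urate, read 10.00 and 10.07 on the parental arrays and 6.57 and 6.71 on the sphere arrays. Both sphere values lay below both parental values, and the difference was -3.39 ± 0.14 (SE, n = 2 and 2, adjusted p = 2.3e-07). It has 1 probe set here. In RNA from whole cultures, fewer cells with a transcript and less of it per cell cannot be told apart. ABCC4, which exports cyclic nucleotides, prostaglandins and nucleoside drugs, read 9.74 and 10.15 in parental cells and 8.16 and 8.23 in spheres, a difference of -1.75 ± 0.16 (adjusted p = 2.4e-05). Its other 3 probe sets differed by -0.88, -0.64 and 0.87, and the last of these passed the test in the opposite direction. ABCC3, a basolateral exporter of bile salts and glucuronides, read 11.40 and 11.39 in parental cells and 10.12 and 10.40 in spheres (-1.14 ± 0.21, adjusted p = 0.0018). Of its 4 other probe sets, 1 also fell, by 0.94, and the rest differed by -0.38, -0.11 and 0.21 without passing. Averaged over its probe sets the change was -0.47.

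ABCC2 went the other way. It read 4.40 and 4.15 on the parental arrays, below every array's median of 5.50 to 5.61, and 6.95 and 7.04 on the sphere arrays. The difference was 2.72 ± 0.24 (adjusted p = 1.7e-05), and since the parental values may be background the fold is uncertain. The other 6 drug exporters did not pass the test in spheres. ABCB1 (P-glycoprotein) read 4.01 and 3.91 in parental cells and 4.19 and 3.72 in spheres, low and overlapping, with a difference of 0.00 (95% confidence interval -0.36 to 0.35, adjusted p = 0.99). ABCC1 (MRP1), an exporter of glutathione conjugates and anthracyclines, read 9.56 and 9.54 in parental cells and 9.50 on both sphere arrays, a difference of -0.05 (interval -0.31 to 0.20, adjusted p = 0.77). Differences in ABCC5, ABCC10, ABCC11 and ABCC12 lay between -0.29 and 0.20.

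**Figure D2:**
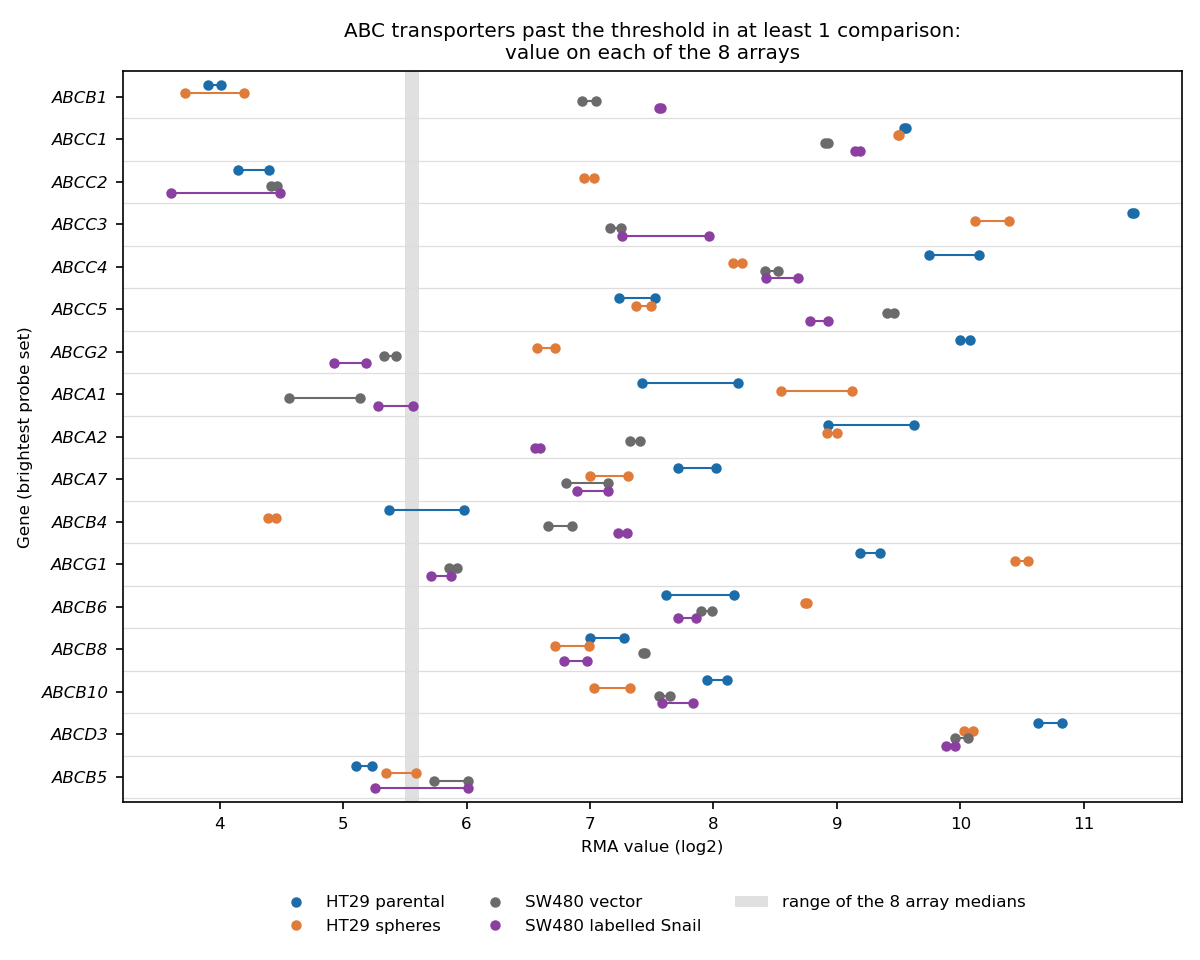
Log2 RMA value on each of the 8 arrays (horizontal axis) for the 17 ABC genes past the threshold in at least 1 comparison (rows); each point is 1 array, a line joins the 2 arrays of a group, colours mark the 4 groups, and the grey band is the range of the array medians, 5.50 to 5.61. ABCG2 lies at 10.00 and 10.07 in parental cells and at 6.57 and 6.71 in spheres, and ABCC2 lies above the band in spheres and below it in the other 3 groups.

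Of the 12 sterol and lipid transporters, 2 rose, 2 fell and 8 did not pass the test in spheres. ABCG1, which moves cholesterol to high density lipoprotein, read 9.18 and 9.35 in parental cells and 10.55 and 10.44 in spheres (1.23 ± 0.13, 2.34-fold, adjusted p = 5.8e-05). A second probe set rose by 1.03 and another pair differed by -0.47 and 0.52 without passing. ABCA1, which loads cholesterol and phospholipid onto apolipoprotein A-I, read 7.42 and 8.19 in parental cells and 8.54 and 9.12 in spheres (1.02 ± 0.28, adjusted p = 0.019). The groups did not overlap, yet the call was lost without the first parental array (0.64, adjusted p = 0.15) and without the second sphere array (0.74, adjusted p = 0.15). ABCB4, the phosphatidylcholine floppase of bile, read 5.38 and 5.98 in parental cells and 4.46 and 4.39 in spheres (-1.25 ± 0.18, 2.38-fold lower, adjusted p = 0.00048). Both sphere values and 1 parental value were below the array medians. Its other probe set differed by 0.09, and averaged over both the change was -0.58 (adjusted p = 0.015). ABCA7, a phospholipid transporter, read 7.71 and 8.02 in parental cells and 7.00 and 7.31 in spheres (-0.71 ± 0.18, adjusted p = 0.011). Its call was lost after quantile normalization (-0.44, adjusted p = 0.09), without the second parental array (-0.56) and without the first sphere array (-0.56).

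Of the organelle transporters, ABCB6, which is linked to porphyrin transport, read 7.62 and 8.16 in parental cells and 8.74 and 8.76 in spheres (0.86 ± 0.17, adjusted p = 0.0033). Its other, dimmer probe set differed by -0.03. ABCB10, a mitochondrial inner membrane transporter of the heme pathway, fell from 8.11 and 7.94 to 7.32 and 7.03 (-0.85 ± 0.15, adjusted p = 0.0015). ABCD3, which brings branched-chain and bile acid precursors into peroxisomes, fell from 10.63 and 10.82 to 10.10 and 10.03 (-0.66 ± 0.13, adjusted p = 0.0027), while its other probe set differed by 0.11. The call for ABCD3 was lost when all probe sets of a gene were averaged (-0.27, adjusted p = 0.11). ABCB8, the third mitochondrial member, differed by -0.28 (adjusted p = 0.19). The 4 channel regulators, bile salt and other transporters did not pass the limma test, and 1 of them had an unadjusted p under 0.05. This was ABCC8, the sulfonylurea receptor, at -0.55 ± 0.20 (adjusted p = 0.06), which passed without the first sphere array (-0.85, adjusted p = 0.014) and without the dimmest 40% of genes (adjusted p = 0.043). None of the ABCA6-like genes passed, with 0 of 4 at an unadjusted p under 0.05, and ABCA8 had the lowest adjusted p among them, 0.13.

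In SW480 the differences between the arrays labelled Snail and the vector arrays were smaller. ABCB1 was 1.49-fold higher, and ABCA2, ABCB8 and ABCC5 were 1.73-fold, 1.47-fold and 1.49-fold lower. These were 1 member higher (2.7%) against 8.91% of all genes and 3 members lower (8.11%) against 7.34%, with 33 members not past the threshold. The median difference was -0.09 for the members and 0.01 for all genes. Each of the 4 calls was lost when either vector array or either array labelled Snail was left out, with adjusted p between 0.063 and 0.19 and the sign kept.

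ABCB1 read 6.94 and 7.05 on the vector arrays and 7.58 and 7.56 on the arrays labelled Snail (0.58 ± 0.16, adjusted p = 0.033). The groups did not overlap. Its second probe set, at 4.57 and 4.45 against 4.31 and 4.21, differed by -0.25 and did not pass, and with probe sets averaged the difference was 0.17 (adjusted p = 0.39). ABCB4, its neighbour on chromosome 7 and a close paralog, read 6.85 and 6.66 against 7.30 and 7.22 (0.51 ± 0.18, adjusted p = 0.091). That difference passed with the SW480 groups fitted alone (adjusted p = 0.028), with array weights (adjusted p = 0.026) and without either HT29 parental array (adjusted p = 0.018 each). A probe set annotated to both genes, and so left out of both, read on average 7.25 in vector cells and 7.87 on the arrays labelled Snail, and cross-hybridisation between the pair was not tested.

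ABCC5, a cyclic nucleotide and antifolate exporter, read 9.41 and 9.46 on the vector arrays and 8.78 and 8.93 on the arrays labelled Snail (-0.58 ± 0.14, adjusted p = 0.019). Its other probe sets differed by -0.28 and 0.15 without passing, and the averaged difference lost the call (-0.24, adjusted p = 0.18). ABCA2, a lysosomal sterol transporter, read 7.32 and 7.40 against 6.59 and 6.56 (-0.79 ± 0.19, adjusted p = 0.021), and of its other probe sets 1 also fell, by 0.53, and 1 differed by 0.07. Averaged over its probe sets the call was lost (-0.41, adjusted p = 0.093). ABCB8, a mitochondrial transporter linked to iron export, read 7.44 and 7.43 against 6.79 and 6.97 (-0.56 ± 0.15, adjusted p = 0.03), and its other probe set fell by 0.59. ABCC1 read 8.93 and 8.90 against 9.19 and 9.14, a difference of 0.25 (interval -0.01 to 0.51, adjusted p = 0.19). ABCG2 read 5.33 and 5.43 against 4.93 and 5.18, a difference of -0.32 (adjusted p = 0.14) at levels below the array medians. ABCA3, a surfactant lipid transporter, differed by -0.40 (adjusted p = 0.098) and ABCA6 by -0.38 (adjusted p = 0.075). In limma's test 0 of the 4 peroxisomal and lysosomal members and 0 of the 4 channel regulators, bile salt and other members passed, with 0 and 0 at an unadjusted p under 0.05.

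The change in spheres was also set against the change in the arrays labelled Snail, gene by gene, as a test of the difference between the 2 changes. It was above for 4 members (10.8%, background 10.6%) and below for 8 (21.6%, background 16.9%). ABCC2 differed by 3.11 ± 0.33 and ABCG1 by 1.33 ± 0.18 in favour of spheres. Below were ABCG2 by -3.07 ± 0.19, ABCC4 by -1.84 ± 0.23, ABCB4 by -1.76 ± 0.26 and ABCC3 by -1.55 ± 0.29. With probe sets averaged the ABCC4 difference lost its call (-0.40, adjusted p = 0.28). For ABCB1 the difference was not past the threshold (-0.58, adjusted p = 0.084), so the changes were not shown to differ in the fit reported. It passed after quantile normalization (-0.65, adjusted p = 0.043) and without the first sphere array (-0.82, adjusted p = 0.02).

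The control cells of the 2 lines differed in the RNA of several exporters. HT29 parental cells had more ABCG2, ABCC3, ABCG1 and ABCA1 RNA, and SW480 vector cells had more ABCB1 and ABCC5 RNA. In SW480 vector cells 4 members were higher (10.8%, background 22.6%) and 10 were lower (27%, background 23.5%), with a median of 0.03 for the members and 0.07 for all genes. The SW480 group is a stable vector line and the HT29 group is not, so cell line and vector selection cannot be told apart.

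The largest difference was in ABCG2, at 10.00 and 10.07 in HT29 parental against 5.33 and 5.43 in SW480 vector cells (-4.66 ± 0.14, 25.2-fold lower, adjusted p = 2.5e-09). ABCC3 read 11.40 and 11.39 against 7.16 and 7.25 (-4.19 ± 0.21, adjusted p = 8.8e-08). ABCG1 read 9.18 and 9.35 against 5.86 and 5.92 (-3.38 ± 0.13, 10.4-fold lower, adjusted p = 1.6e-08). ABCA1 read 7.42 and 8.19 against 5.14 and 4.56 (-2.96 ± 0.28, 7.77-fold lower, adjusted p = 1.2e-05). The arrays of the lines did not overlap for these 4 genes, and the SW480 values of ABCG2 and ABCA1 lay below the array medians.

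ABCB1 was at 4.01 and 3.91 in HT29 parental cells, below the array medians, and at 6.94 and 7.05 in SW480 vector cells (3.03 ± 0.16, 8.17-fold higher, adjusted p = 1.4e-07). Its other probe set was higher too, by 0.91. ABCC5 read 7.24 and 7.52 against 9.41 and 9.46 (2.05 ± 0.14, 4.15-fold, adjusted p = 9.1e-07). ABCB4 (1.08 ± 0.18) and ABCB5 (0.71 ± 0.22, adjusted p = 0.024), a transporter described in melanoma and limbal stem cells, were also higher in SW480. The other ABCB4 probe set differed by 0.32 without passing, and averaged over both the difference was 0.70 (adjusted p = 0.0035). The probe set annotated to both ABCB1 and ABCB4 averaged 5.30 in HT29 parental and 7.25 in SW480 vector cells. Cross-hybridisation between the pair was not tested. The ABCB5 call was lost after quantile normalization (0.58, adjusted p = 0.052), with array weights (adjusted p = 0.056) and with probe sets averaged (0.27, adjusted p = 0.093). It was also lost without either parental array (0.77 and 0.64) and without the second vector array (0.57). Of its other probe sets, 1 was also higher, by 0.42, and the rest differed by 0.12 and -0.15 without passing. Of the remaining lower members, ABCA2 differed by -1.91, ABCC4 by -1.48, ABCA7 by -0.89, ABCD3 by -0.72, ABCC1 by -0.64 and ABCB10 by -0.42. The ABCC4 value rested on its brightest probe set, since the mean over its probe sets gave -0.22 (adjusted p = 0.35). The ABCB10 call was lost after quantile normalization (-0.16, adjusted p = 0.44) and after centring each array on its median (-0.39, adjusted p = 0.057). It was lost too with array weights (adjusted p = 0.07) and with the replicate number as a block (adjusted p = 0.051). Without the first parental array the difference was -0.34, and without either vector array -0.46 and -0.37, and the call was lost each time.

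Across the 4 groups, ABCG2 was highest in HT29 parental cells, followed by HT29 spheres and then both SW480 groups, whose difference did not pass the test. ABCC3 followed the same order. ABCB1 ran from the arrays labelled Snail through SW480 vector cells to both HT29 groups, which overlapped. ABCC2 was above the array medians in spheres only, and its difference between the 2 control lines did not pass (0.17, adjusted p = 0.6). ABCC5 was highest in SW480 vector cells, then in the arrays labelled Snail, and overlapped between the 2 HT29 groups.

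Of the 37 members, 17 (45.9%) passed the test in at least 1 of the 3 comparisons between groups, against 58.9% of all genes. Of the 20 that passed in none, 11 read below the lowest array median on all 8 arrays, between 2.86 and 5.43. These were ABCA6, ABCA8, ABCA9, ABCA12, ABCA13, ABCB11, ABCC9, ABCC12, ABCD2, ABCG5 and ABCG8, among them the bile salt export pump (ABCB11) and the intestinal sterol exporter formed by ABCG5 and ABCG8. Detection was not measured, so these values may be background and say little about change. The other 9 were ABCA3, ABCA4, ABCA5, ABCB9, ABCC8, ABCC10, ABCC11, ABCD4 and ABCG4. Of these, ABCC10 (MRP7) read 7.57 and 7.63 in parental cells and 7.39 on both sphere arrays. It read 7.97 and 7.81 in vector cells and 7.88 and 7.62 on the arrays labelled Snail. ABCD4, which takes part in lysosomal cobalamin export, read 7.50 and 7.33, 7.02 and 7.15, 7.44 and 7.31, and 7.20 and 7.38 in the same order.

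Most genes had more than 1 probe set, 26 of the 37. Of the 11 members called in spheres, 4 had a single probe set, 4 had another probe set called the same way and 3 had others of which none was called the same way. ABCC4 alone had another called the opposite way. Of the 4 called in the arrays labelled Snail, ABCA2 and ABCB8 had another probe set called the same way and ABCB1 and ABCC5 had not. Of the 14 called between the lines, 3 had a single probe set, 7 had another called the same way and 4 had none. With all probe sets of a gene averaged, the sphere differences were 0.73 for ABCA1, 0.58 for ABCG1, 0.42 for ABCB6 and -0.60 for ABCC4, each still past the threshold and smaller than on the brightest probe set.

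**Figure D3:**
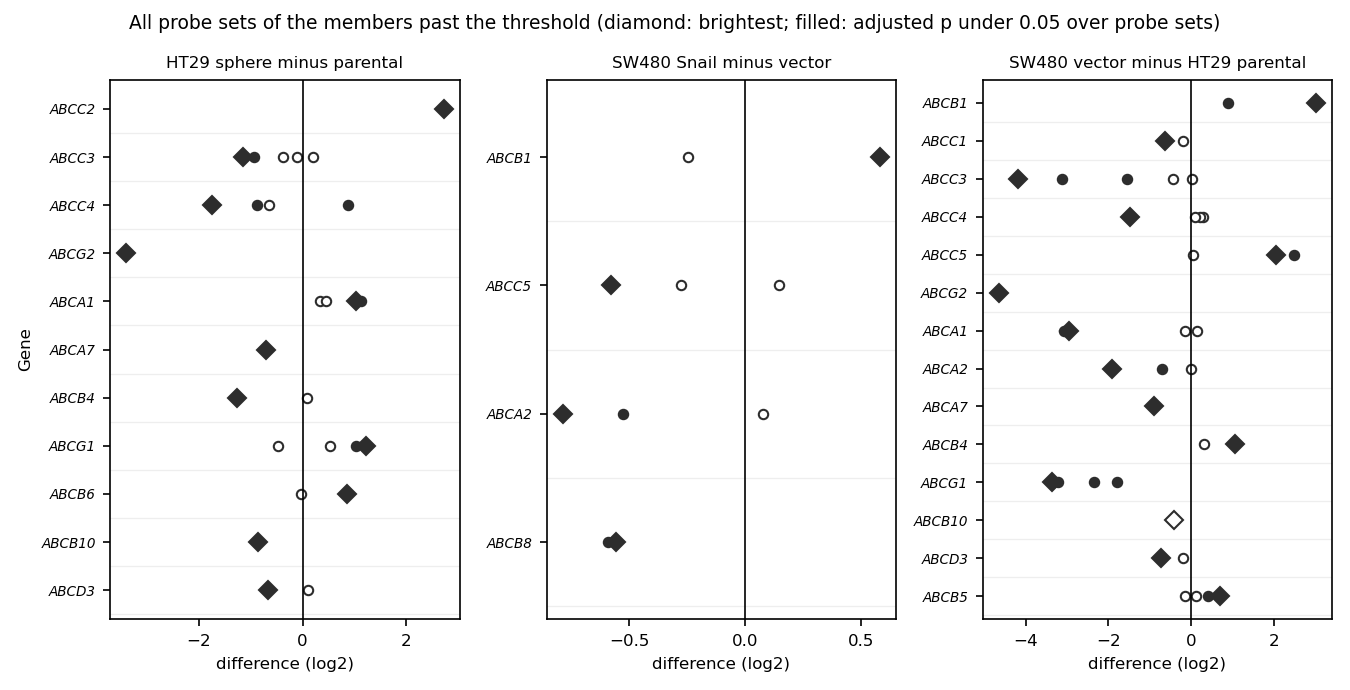
Log2 difference (horizontal axis) of every probe set of the members past the threshold, in a panel for each of the 3 comparisons; a diamond is the brightest probe set, which stands for the gene, circles are its other probe sets, and filled symbols passed limma's test adjusted over all probe sets. The ABCC4 probe sets run from -1.75 to 0.87 in spheres, and the ABCB1 probe sets from -0.25 to 0.58 in the arrays labelled Snail.

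Other genes of the pathways around the members were counted from lists chosen by function. The background for these counts is the share of all genes given above, 12.4% higher and 19% lower in spheres, 8.91% and 7.34% in the arrays labelled Snail, and 22.6% and 23.5% between the lines. The lists are small, and nothing particular to a list is read from its count. Of 7 other ABC superfamily genes, 3 rose and 1 fell in spheres. The gene that fell was CFTR (ABCC7), the chloride channel of the epithelium, from 9.59 and 9.81 to 6.27 and 6.49 (-3.32 ± 0.14, adjusted p = 2.5e-07). TAP1, which carries peptides to the class I antigen presentation machinery, rose by 0.84 and ABCF3 by 0.46. In the arrays labelled Snail none of the 7 passed in limma's test, with 3 at an unadjusted p under 0.05. Between the lines 5 were higher and 1 was lower in SW480, again CFTR (-4.64, adjusted p = 2.8e-09).

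Among 18 transcription regulators of ABC genes, 4 rose and 3 fell in spheres, and 6 rose and 12 did not pass in the arrays labelled Snail. PPARG, a nuclear receptor of lipid metabolism, read 10.27 and 10.77 in parental cells and 8.42 and 8.45 in spheres (-2.08 ± 0.17, adjusted p = 1.4e-05). NR0B2, a nuclear receptor that represses bile acid synthesis, fell by 2.03. Of the 4 that rose, KEAP1 changed most, by 0.82 (adjusted p = 0.00068). NR1H3, named here after its values were seen because its product LXR alpha switches on ABCA1 and ABCG1, fell by 0.88. Of 6 LXR targets outside the family, 4 rose and 1 fell in spheres. LPCAT3 was the gene that fell (-0.76, adjusted p = 0.0013). PLTP, which transfers phospholipid between lipoproteins, rose from 7.20 and 7.82 to 10.34 and 10.49 (2.91 ± 0.20, adjusted p = 4.3e-06). In the arrays labelled Snail 1 rose, SCD (1.10), and 1 fell, PLTP (-0.86). SREBF1 rose there by 1.28 and HIF1A by 1.18.

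Of 11 genes of glutathione supply and conjugation, which make the substrates of the ABCC exporters, 4 rose and 2 fell in spheres. GCLC and GCLM, the subunits of the rate-limiting enzyme of glutathione synthesis, were both 2.36 higher. GCLC read 9.80 and 9.89 in parental cells and 12.25 and 12.16 in spheres. In the arrays labelled Snail 1 rose, GCLC (0.81), and 1 fell, MGST1 (-0.45). Of 17 uptake and other solute carriers, 4 rose and 4 fell in spheres. SLC22A4, the ergothioneine carrier, rose by 3.04 (5.04 and 5.01 against 8.19 and 7.95), and the nucleoside carrier SLC29A2 and the folate carrier SLC19A1 fell by 1.13 and 1.11. In the arrays labelled Snail 2 rose and 2 fell, among them the nucleoside carrier SLC29A1 (-0.99). Of 14 partner and anchoring genes, 1 rose and 4 fell in spheres, among them PEX19, which delivers peroxisomal membrane proteins (-0.82), and MMACHC, a cobalamin processing protein (-0.79). In the arrays labelled Snail 2 of these rose, LMBRD1 (0.94) and NHERF1 (0.61). Between the lines the regulators counted 3 higher and 10 lower in SW480, the LXR targets 2 and 3, the partners 5 and 4, the solute carriers 6 and 2, and the glutathione genes 2 and 7.

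**Figure D4:**
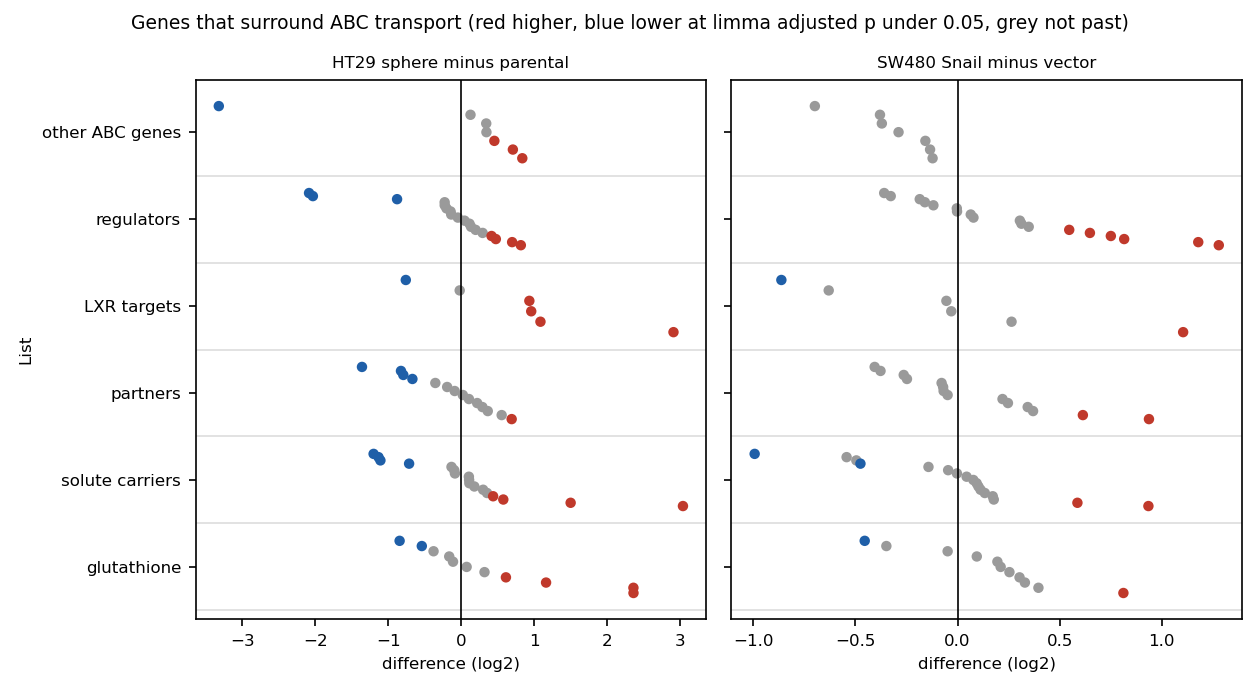
Log2 difference (horizontal axis) of each measured gene in 6 pathway lists (rows), for spheres minus parental cells and for the arrays labelled Snail minus vector, on different axis ranges; red genes were higher and blue genes lower at limma's adjusted p under 0.05, and grey genes did not pass. CFTR lies at -3.32 and SLC22A4 at 3.04 in spheres, and SREBF1 at 1.28 in the arrays labelled Snail.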

How the data were processed

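The authors deposited log2 values for 54675 probe sets on 8 arrays, which per the submitters' processing notes came from RMA. Its version and settings were not stated. GEO's platform annotation named 1 gene for 41091 probe sets, several for 1801 and none listed for 11721, and 62 were controls. Of the named probe sets, 41037 were matched to RefSeq (GRCh38.p14) by Entrez ID, which changed no symbol.

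For this report, a gene was its brightest probe set, giving 19775 genes. limma 3.58.1 (R 4.3.3) was fitted with a mean per group over all 8 arrays (4 residual and 6.10 prior degrees of freedom), and adjusted p is Benjamini-Hochberg over 19775 genes, with a threshold of 0.05. Values after ± are standard errors. An exact permutation test of 2 against 2 arrays cannot go below p = 0.333 and was not used. Low values cannot be told from background because no detection calls were used, and levels are not compared between probe sets.

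The members and lists were chosen with earlier results of these data known. Named genes were SNAI1, ABCB1, ABCC1 and ABCG2, every member past the threshold with at least a 2-fold change and no overlap in spheres or in the arrays labelled Snail, the member with the lowest adjusted p per role, the 6 largest differences between the lines, and per pathway list and comparison up to 3 genes with the lowest adjusted p. Other members are named to account for all 37. Replicate numbers did not pair the arrays, since deviations correlated between -0.057 and 0.061. Alternatives were normalization, filters, probe set choice, the fit and each array left out.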

Additional observations from a re-analysis of the deposited data

Results flagged for a closer look

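For 12 members the change in HT29 spheres and the change in the SW480 arrays labelled Snail differed by limma's test of the difference itself. The sphere change was above for 4 (10.8%, against 10.6% of all genes) and below for 8 (21.6%, against 16.9%). The sphere change was above the other for ABCC2 (3.11 ± 0.33, adjusted p = 0.00011), ABCG1 (1.33 ± 0.18, adjusted p = 0.00048), ABCB6 (1.02 ± 0.24, adjusted p = 0.011) and ABCC5 (0.63 ± 0.20, adjusted p = 0.037). It was below for ABCG2 (-3.07 ± 0.19, adjusted p = 5.8e-06), ABCC4 (-1.84 ± 0.23, adjusted p = 0.00024), ABCB4 (-1.76 ± 0.26, adjusted p = 0.00072), ABCC3 (-1.55 ± 0.29, adjusted p = 0.0029), ABCB10 (-0.95 ± 0.21, adjusted p = 0.0075), ABCA7 (-0.75 ± 0.25, adjusted p = 0.049), ABCA4 (-0.59 ± 0.19, adjusted p = 0.038) and ABCD3 (-0.57 ± 0.18, adjusted p = 0.039). ABCA4, the retinal lipid transporter, passed in neither comparison on its own, at -0.34 in spheres and 0.25 in the arrays labelled Snail.

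Of these differences, 6 kept their call under every alternative run, those of ABCB10, ABCB4, ABCC2, ABCC3, ABCG1 and ABCG2. With probe sets averaged the calls of ABCA4 (-0.25, adjusted p = 0.23), ABCB6 (0.56), ABCC4 (-0.40), ABCC5 (0.18) and ABCD3 (-0.47) were lost. With arrays centred on their medians those of ABCA4 (-0.45), ABCA7 (-0.61) and ABCD3 (-0.43) were lost. The line and the treatment change together between the 2 comparisons and cannot be told apart.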

How the results depend on the processing

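None of the called differences reversed under any alternative run. The call held under every alternative that tested the gene for 8 of the 11 members called in spheres (ABCB4, ABCB6, ABCB10, ABCC2, ABCC3, ABCC4, ABCG1 and ABCG2), for 11 of 14 between the lines and for 0 of 4 in the arrays labelled Snail. The fit without the dimmest 40% of genes did not hold ABCC2 or ABCB1, so it did not test their calls. Members higher in the arrays labelled Snail, 1 in the report, counted 0 with all probe sets averaged, and 2 with array weights or with SW480 fitted alone. The count was also 0 without the dimmest 40% of genes, because that filter removed ABCB1, which was then not tested. Members lower there, 3 in the report, counted 1 with probe sets averaged. Members higher in SW480 vector cells counted 2 in place of 4 without the dimmest genes, because the filter removed ABCB1 and ABCB5 before the test. Sphere changes above the Snail change counted 2 in place of 4 with probe sets averaged, and those below counted 5 in place of 8 with probe sets averaged, with arrays centred on their medians or with adjustment over all probe sets. Leaving out 1 array at a time gave 3 to 5 members higher and 6 to 8 lower in spheres, 0 to 2 higher and 0 to 3 lower in the arrays labelled Snail, 3 to 5 higher and 9 to 10 lower in SW480 vector cells, and 3 to 5 above and 5 to 7 below for the difference of changes; the lone array left was assumed to vary like the other groups. With the replicate number as a block, 4 members were higher and 7 lower in spheres, and 1 and 3 in the arrays labelled Snail. Members not called in the report were called in 1 or more of these alternatives in 4 cases in spheres, 4 in the arrays labelled Snail, 5 between the lines and 6 for the difference of changes. A fit of only the groups compared was not run for the difference of changes. With 2 arrays a group, small changes could go uncalled, and the 11 dim members say little.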
